A study of Homo sapiens with 6 samples.

Results

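Potassium channel subunit genes were examined in ME180 cells, an established epithelial line from a human cervical cancer. Members were the protein-coding genes whose symbol begins with KCN followed by a letter, which gave 96 of the 19847 protein-coding genes in the deposited table. Cultures had been transfected with a small interfering RNA against the kinase SGK1 (siSGK1, 3 libraries) or with a control one (siControl, 3 libraries), and polyA RNA was sequenced after 48 h in both groups. The libraries carry the numbers 2, 3 and 4 in each group and are given in that order, and the series calls them biological repeats. Every value comes from this single cell line, and no siRNA sequence is given in the sources used here.

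Potassium channels let potassium ions cross the membrane and so set the resting potential, shape action potentials in excitable cells and, in epithelia, recycle potassium and help to regulate cell volume. The symbols fall into families. Voltage-gated Kv subunits open on depolarisation, calcium-activated and sodium-activated subunits respond to those ions, inward rectifiers (Kir) hold the resting potential, and K2P subunits, which carry a tandem pair of pore loops, pass a leak current. Silent Kv subunits form no channel alone and modify Kv2 channels, and accessory subunits change the gating or traffic of pore-forming ones. SGK1 is a serine/threonine kinase downstream of PI3K signalling that is known to raise the surface abundance and current of several of these channels, mostly from work in Xenopus oocytes, and that inhibits the ubiquitin ligase NEDD4L by phosphorylation.

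Each library held 28405647, 30305453 and 35242643 reads in siSGK1, against 27510318, 27262794 and 27874948 in siControl, as recovered from the deposited FPKM (reads per kilobase of gene, scaled for library depth). SGK1 itself measured 1.58, 1.70 and 1.81 FPKM in siSGK1 libraries, against 3.91, 4.27 and 4.17 in siControl. It was lower in every siSGK1 library (log2 change -1.07, limma adjusted p = 1.88e-05), and a 2-sided exact permutation test gave p = 0.1, the smallest that 3 against 3 libraries allow. Of 10 squamous epithelial markers, 10 had a mean of at least 1 FPKM. Their summed level was 5016 to 5847 FPKM in siSGK1 and 8137 to 8764 in siControl, with 6 of the 10 lower in siSGK1 (22.7% of all tested genes were), KRT14 and KRT6A among them, while TP63 and CDH1 were not called. Leukocyte, endothelial and neuron or muscle markers (0 of 5, 0 of 5 and 0 of 7) did not reach a mean of 1 FPKM, and 1 of 6 fibroblast markers, COL1A1, did. Mitochondrially encoded genes took 3.38 to 3.66% of reads in siSGK1 and 4.16 to 4.40% in siControl. The part of these shifts in the values below was not tested. In bulk RNA, fewer cells that express a gene and less RNA per cell cannot be told apart.

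Most of the family was at or near 0 in these cells. Only 14 of the 96 members (14.6%) reached a mean of 1 FPKM over the 6 libraries, against 10394 of all 19847 protein-coding genes (52.4%). By group means, 11 members reached that level in siSGK1 and 14 in siControl, against 10373 and 10374 of all protein-coding genes. Some lay close to the limit in siSGK1, with KCNQ1 at 0.991 and KCNAB2 at 0.949 FPKM. KCNE2 reached it in siSGK1 only (1.25 FPKM, against 0.746 in siControl). KCNK10, at 1.13 FPKM, lay just inside the limit and KCNE2, at 0.998 FPKM, just outside it. Only KCNH4, KCNK6, KCNS3 and KCNH3 exceeded a mean of 5 FPKM. At the other end, 20 members had no read in any library, a count that allows a level of up to 0.00097 FPKM for KCNA2 and up to 0.0146 for KCNK18, the lowest and highest such limits (3 reads over the 6 libraries, counting error only). A further 40 had reads but fewer than 10 per library on average, with 1 to 55 reads in all 6 libraries together.

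**Figure D1:**
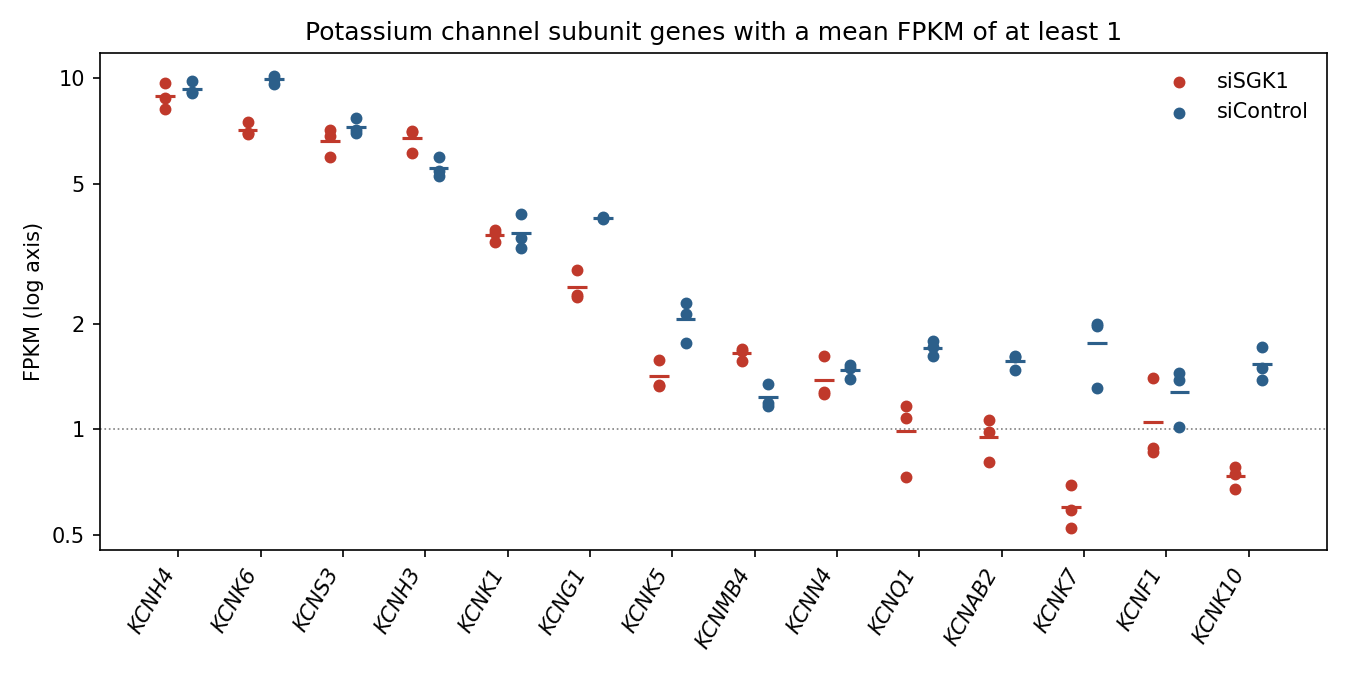
FPKM (log axis) of the 14 potassium channel genes with a mean of at least 1, with 1 point per library, bars at the group means and siSGK1 left of siControl for each gene; the dotted line marks 1 FPKM. KCNK7 and KCNK10 show the widest separation, and KCNH4, KCNS3, KCNK1, KCNN4 and KCNF1 overlap between the groups.

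The summed level of all members was 52.8, 48.5 and 53.2 FPKM in siSGK1, against 59.1, 58.7 and 60.1 in siControl. On this deposited scaling the sums did not overlap, with means of 51.5 ± 2.62 in siSGK1 and 59.3 ± 0.72 in siControl (SD, n = 3 each). The class with most of the difference was K2P, whose 15 members summed to 14.7, 14.1 and 14.5 FPKM in siSGK1 and to 19.8, 18.8 and 19.8 in siControl. Silent Kv subunits (10 genes) summed to 10.5 ± 0.93 FPKM in siSGK1 and 12.9 ± 0.50 in siControl. The 29 other voltage-gated pore genes summed to nearly equal levels, 18.6 ± 1.36 FPKM in siSGK1 and 18.8 ± 0.28 in siControl. The 18 accessory genes summed to 4.76 ± 0.14 FPKM in siSGK1 and 4.60 ± 0.34 in siControl, and the 8 calcium- or sodium-activated genes to 1.75 ± 0.28 in siSGK1 and 1.82 ± 0.13 in siControl. The 16 Kir genes, of which none reached 1 FPKM, summed to 1.53 ± 0.13 FPKM in siSGK1 and 1.73 ± 0.05 in siControl. All these sums depend on the scaling. The median log2 change of all tested genes was -0.006 as deposited, 0.12 after scaling to total reads and 0.19 in TPM. The sums were not computed under those other scalings, so a fall of the family total is not established.

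**Figure D2:**
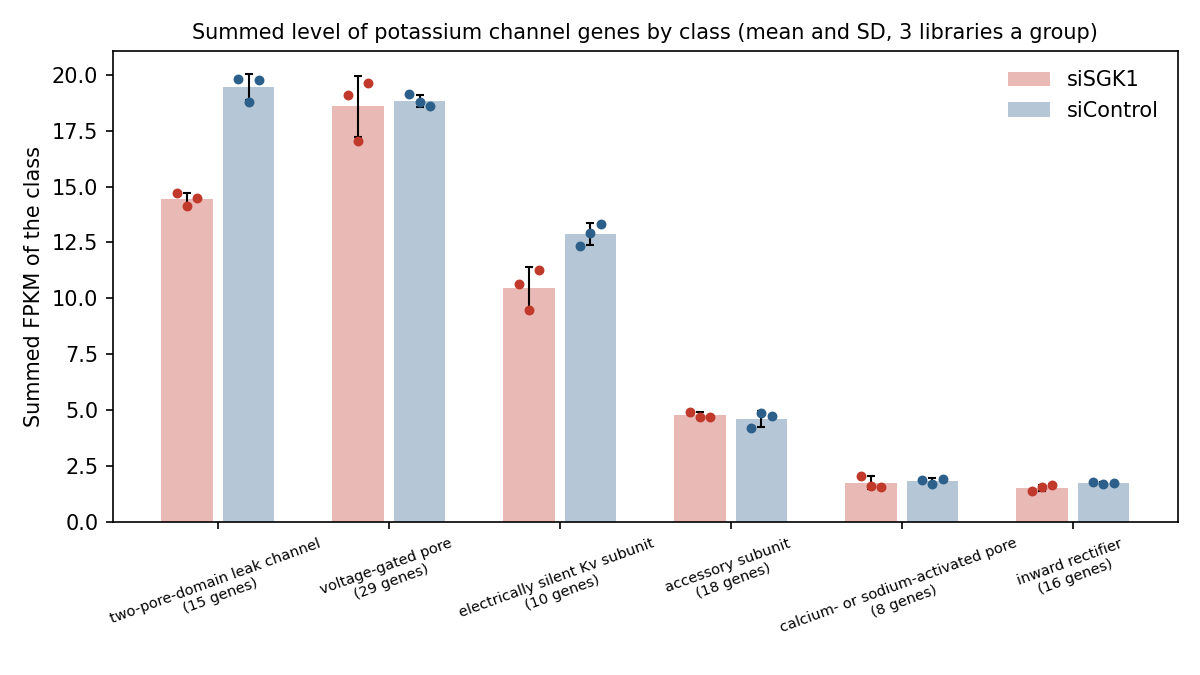
Summed FPKM of all members of each channel class in each library, with siSGK1 left of siControl. Bars give group means, error bars the SD and points the libraries, 3 per group. The K2P sums sit between 14.1 and 14.7 in siSGK1, all below the 18.8 to 19.8 of siControl.

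Of the 14 members with a mean of at least 1 FPKM, 9 passed limma's test on log2(FPKM + 0.5) at an adjusted p below 0.05, with adjustment over all 11945 genes at that level. KCNH3 and KCNMB4 rose with siSGK1, and KCNK7, KCNK10, KCNQ1, KCNG1, KCNAB2, KCNK6 and KCNK5 fell. Over the whole table, the called share was 40.6%, with 17.9% of genes higher and 22.7% lower in siSGK1. The members' median log2 change was -0.31, against -0.006 over all tested genes, and the groups did not overlap for 9 of the 14, against 53.4% of all tested genes. Of the 7 genes that fell, 4 (KCNQ1, KCNAB2, KCNK7 and KCNK10) had a mean under 1 FPKM in siSGK1 and passed the level limit through siControl, so the count and median over the 14 are given as a description only. Adjusted p-values rest on the spread between these cultures, and the log2(FPKM + 0.5) scale understates the change of genes near 1 FPKM. Run on recovered reads with limma's voom, the test called the same 9 genes, with log2 changes of -1.52 for KCNK7 and -1.05 for KCNK10, against -1.02 and -0.72 on the FPKM scale.

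**Figure D3:**
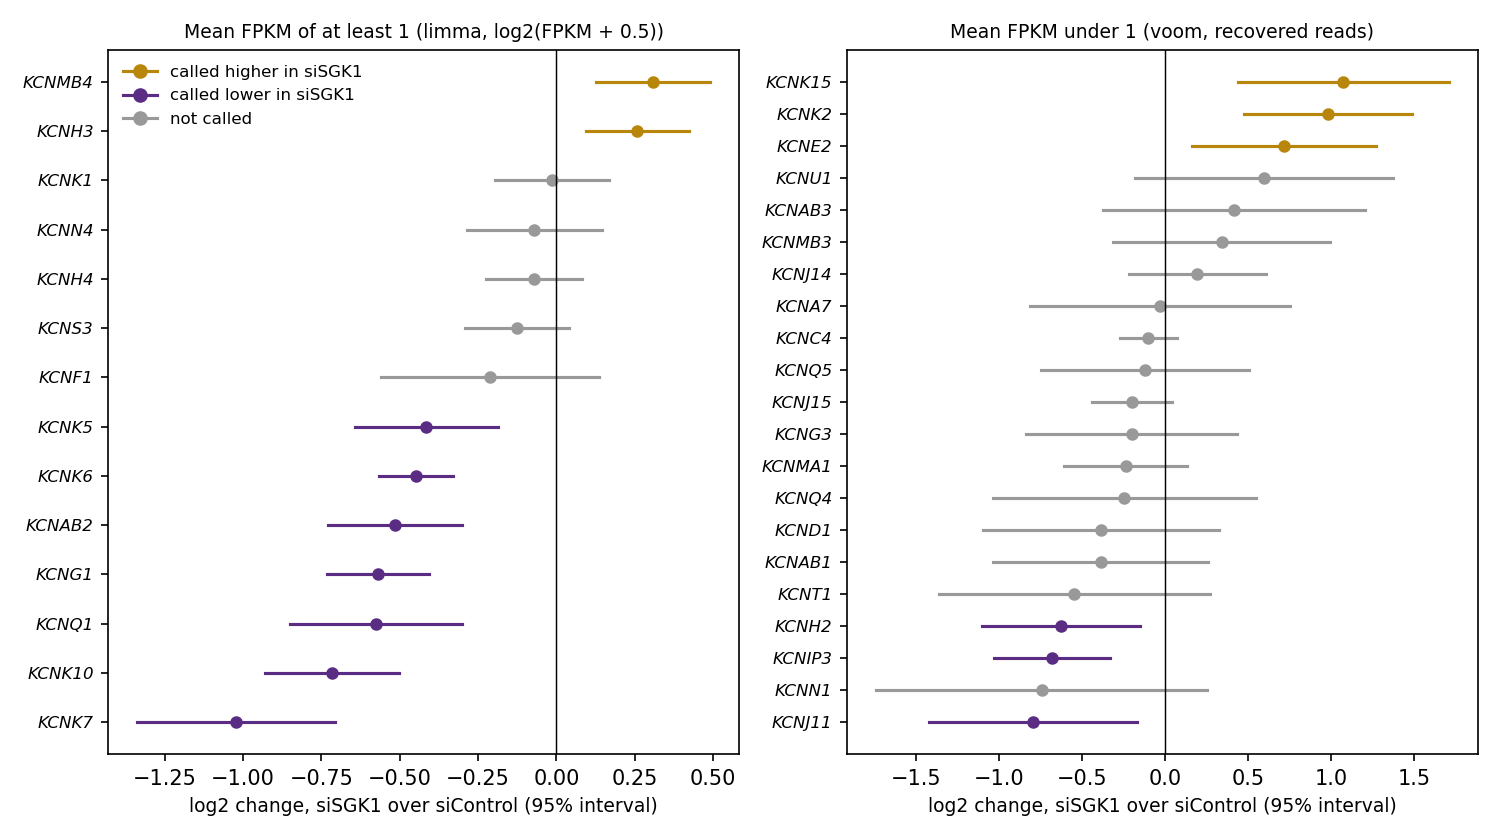
Log2 change, siSGK1 over siControl, with 95% confidence intervals, for the 14 members tested on the log2(FPKM + 0.5) scale (left) and for members tested on recovered reads with voom (right, 21 of the 22 drawn). On the left, the 7 genes called lower lie between -1.02 and -0.42, and the called higher pair, KCNH3 and KCNMB4, lie at 0.26 and 0.31.

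K2P subunits were 5 of the 14 members tested at this level and supplied 4 of the 7 falls. KCNK7 and KCNK10 passed the level limit only through siControl, and KCNK2 and KCNK15, called at lower levels, rose. The pore of every potassium channel is lined by a selectivity filter with the signature threonine or serine, any residue, glycine, an aromatic residue or leucine, glycine. A search of the coding sequences of GENCODE 29 transcripts (GRCh38) found this signature in all 78 pore-type members and in 0 of the 18 accessory ones, against 5.89% of 19355 protein-coding genes of the table. In 12 of the 15 K2P genes it occurred at 2 places, numbered below as loops 1 and 2 by order along the protein. The search did not check that a match lies in a pore loop, and 2 of the 29 voltage-gated pore genes held 2 matches. The codons of the K2P genes the results turn on are shown to let the loops be compared, 5′ to 3′ on the coding strand, with the 5 signature codons in capitals.
KCNK6 loop 1 (chr19:38320266-38326600, plus strand): atcaccACCGTGGGCTATGGGtacaca
KCNK6 loop 2 (chr19:38326910-38326924, plus strand): ctgtccACCATCGGCCTGGGCgactac
KCNK7 (chr11:65593867-65595460, minus strand): ctcaccACCACAGGTTATGGCcacatg
KCNK5 loop 1 (chr6:39194753-39195882, minus strand): attaccACCATTGGATATGGCaatgtg
KCNK5 loop 2 (chr6:39194182-39194196, minus strand): atctccACCATCGGCTTCGGTgacttt
KCNK10 loop 1 (chr14:88227528-88240709, minus strand): attacgACCATAGGGTATGGGaatatt
KCNK10 loop 2 (chr14:88192237-88192251, minus strand): ctgaccACGGTGGGCTTTGGTgatttt
The loop 1 codons of these genes and the single KCNK7 match are split by an intron, so their coordinates span it, while the loop 2 codons lie within 1 exon. KCNK7 held 1 match only, at residues 105 to 109, and the letters searched were not found elsewhere in it.

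KCNK6 (ENSG00000099337, 19:38319844-38332076, plus strand) encodes TWIK-2, a background channel of the weakly rectifying group. It measured 7.49, 6.97 and 6.94 FPKM in siSGK1, against 9.61, 10.2 and 9.96 in siControl. Every siSGK1 library lay below every siControl library, and the gene was the most abundant K2P member in both groups. The means were 7.13 ± 0.31 FPKM in siSGK1 and 9.91 ± 0.28 in siControl (SD, n = 3 each), a log2 change of -0.45 (SE 0.051, limma adjusted p = 0.000289). These values rest on 1359 to 1569 reads per siSGK1 library and 1556 to 1657 per siControl library.

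KCNK7 (ENSG00000173338, 11:65592855-65595996, minus strand) encodes a relative of the TWIK channels that gives no measurable current when expressed alone. It measured 0.587, 0.695 and 0.524 FPKM in siSGK1, against 2.00, 1.31 and 1.97 in siControl. The groups did not overlap, although siControl library 3 was lower than libraries 2 and 4. The log2 change was -1.02 (95% interval -1.34 to -0.71, limma adjusted p = 0.000656), the largest among the 14, and the siSGK1 mean was 0.342 times that of siControl. These levels rest on 27, 36 and 30 reads in siSGK1 and 82, 53 and 83 in siControl.

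KCNK10 (ENSG00000100433, 14:88180103-88326907, minus strand) encodes TREK-2, a channel opened by membrane stretch, warmth and arachidonic acid. It measured 0.675, 0.779 and 0.747 FPKM in siSGK1, against 1.38, 1.49 and 1.71 in siControl, with no overlap. It fell by 0.72 on the log2 scale (SE 0.094, limma adjusted p = 0.000568), to 0.480 times the siControl mean. KCNK5 (ENSG00000164626, 6:39188973-39229450, minus strand) encodes TASK-2, an alkali-activated channel known for volume regulation and bicarbonate transport in kidney epithelium. It measured 1.34, 1.33 and 1.58 FPKM in siSGK1, against 2.13, 1.75 and 2.29 in siControl, again without overlap. Its log2 change was -0.42 (limma adjusted p = 0.0109), and the call was lost without the level filter (adjusted p = 0.058) and after rescaling to TPM (adjusted p = 0.061).

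KCNK1, which encodes TWIK-1, a leak channel of low activity at the cell surface, was the exception among the 5 K2P genes at this level. It measured 3.61, 3.42 and 3.69 FPKM in siSGK1, against 4.10, 3.51 and 3.27 in siControl. The groups overlapped, and the log2 change was -0.01 with a 95% interval of -0.20 to 0.17 (limma adjusted p = 0.902).

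Among the voltage-gated pore genes, the ether-a-go-go relatives KCNH4 and KCNH3 were the most abundant. Both encode Kv12 channels, known chiefly from brain. Their filter codons are nearly alike and begin with a serine codon where KCNQ1 has a threonine codon, so the 3 are shown side by side with the signature in capitals.
KCNH4 (chr17:42170168-42170182, minus strand): ctcaccAGTGTGGGCTTTGGCaacgtg
KCNH3 (chr12:49549098-49549112, plus strand): ctcaccAGCGTGGGCTTCGGCaacgtg
KCNQ1 (chr11:2583447-2583461, plus strand): gtcaccACCATCGGCTATGGGgacaag
KCNH4 (ENSG00000089558, 17:42156891-42181278, minus strand) had the highest mean of all members over the 6 libraries, although KCNK6 was higher in the siControl mean. It measured 8.75, 8.17 and 9.68 FPKM in siSGK1 and 9.11, 9.82 and 9.06 in siControl. The groups overlapped, and the log2 change was -0.07 with a 95% interval of -0.23 to 0.08 (limma adjusted p = 0.431). KCNH3 (ENSG00000135519, 12:49539157-49558308, plus strand) measured 7.08, 6.12 and 7.03 FPKM in siSGK1, against 5.96, 5.26 and 5.43 in siControl. Its lowest siSGK1 library was only slightly above its highest siControl library. It rose by 0.26 on the log2 scale (limma adjusted p = 0.0202), or to 1.21 times the siControl mean, and shares 14 exon bases with MCRS1 on the opposite strand. The KCNH3 call was lost without the level filter (adjusted p = 0.079) and on leaving out siSGK1 library 2 (0.063), siSGK1 library 4 (0.070), siControl library 3 (0.074) or siControl library 4 (0.057).

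KCNQ1 (ENSG00000053918, 11:2444684-2849109, plus strand) encodes Kv7.1, which pairs with KCNE1 in the heart and with KCNE2 or KCNE3 in secretory epithelia, and its current is among those that SGK1 raised in oocytes. It measured 1.16, 0.730 and 1.08 FPKM in siSGK1, against 1.72, 1.61 and 1.78 in siControl. All siSGK1 libraries were lower, library 3 most of all. The log2 change was -0.58 (SE 0.12, limma adjusted p = 0.0056). Its exons share 121 bases with those of the antisense gene KCNQ1OT1, and whether counting used strand is not stated in the sources used here.

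The silent Kv genes KCNS3, KCNG1 and KCNF1 all reached 1 FPKM. KCNG1 (ENSG00000026559, 20:51003656-51023129, minus strand), which encodes Kv6.1, measured 2.38, 2.40 and 2.84 FPKM in siSGK1, against 3.98, 3.99 and 4.03 in siControl. The siControl libraries were nearly identical and all higher, and the log2 change was -0.57 (SE 0.071, limma adjusted p = 0.000442). KCNS3 (ENSG00000170745, 2:17877847-18361616, plus strand), which encodes Kv9.3, measured 7.09, 5.94 and 6.84 FPKM in siSGK1 and 6.96, 7.12 and 7.70 in siControl. These groups overlapped, with a log2 change of -0.13 and a 95% interval of -0.29 to 0.04 (limma adjusted p = 0.199). KCNF1, which encodes Kv5.1, measured 0.862, 0.884 and 1.40 FPKM in siSGK1 and 1.02, 1.45 and 1.38 in siControl, also overlapping (log2 change -0.21, 95% interval -0.56 to 0.14, limma adjusted p = 0.30).

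KCNN4 (ENSG00000104783, 19:43766533-43781257, minus strand) encodes KCa3.1, a calcium-activated channel that drives secretion and proliferation in many non-excitable cells. It measured 1.61, 1.28 and 1.26 FPKM in siSGK1 and 1.49, 1.39 and 1.52 in siControl. The groups overlapped, and the 95% interval of the log2 change ran from -0.28 to 0.14 (limma adjusted p = 0.587).

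Of the accessory genes, KCNMB4 rose and KCNAB2 fell. KCNMB4 (ENSG00000135643, 12:70366276-70434292, plus strand) encodes the beta 4 subunit of the large-conductance BK channel, which slows its gating. It measured 1.56, 1.67 and 1.70 FPKM in siSGK1, against 1.17, 1.34 and 1.19 in siControl. All siSGK1 libraries were higher, with a log2 change of 0.31 (SE 0.080, limma adjusted p = 0.0149). The call was lost without the level filter (adjusted p = 0.051) and without siSGK1 library 4 (adjusted p = 0.057). Its pore partner KCNMA1 had 91, 67 and 97 reads in siSGK1 and 82, 69 and 86 in siControl, spread over a gene length of 35644 bases, and was not called in the test of low genes below (log2 change -0.24, adjusted p = 0.325).

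KCNAB2 (ENSG00000069424, 1:5991466-6101193, plus strand) encodes Kv beta 2, a cytoplasmic subunit of Kv1 channels with an aldo-keto reductase fold. It measured 1.06, 0.808 and 0.979 FPKM in siSGK1, against 1.48, 1.62 and 1.60 in siControl. The groups did not overlap, and it fell by 0.52 on the log2 scale (SE 0.093, limma adjusted p = 0.00287). Of its exon bases, 111 are shared with NPHP4 on the opposite strand. Among the Kv1 pore genes it can join, KCNA2, KCNA3, KCNA4 and KCNA5 had no read in any library and KCNA1 had 1. KCNA10 had 10 reads in all, and KCNA7 had 16, 10 and 14 reads in siSGK1 and 11, 8 and 13 in siControl, without a call.

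A further 22 members lay under a mean of 1 FPKM but had at least 10 reads per library on average. For these, limma's voom was run on the recovered reads, adjusted over all genes with that many reads. KCNK15, KCNK2 and KCNE2 rose, and KCNJ11, KCNIP3 and KCNH2 fell, so that 6 of the 22 were called. Among all 4703 genes in that range, 21.1% were called, 11.9% higher and 9.21% lower. The median log2 change of the 22 was -0.16.

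**Figure D4:**
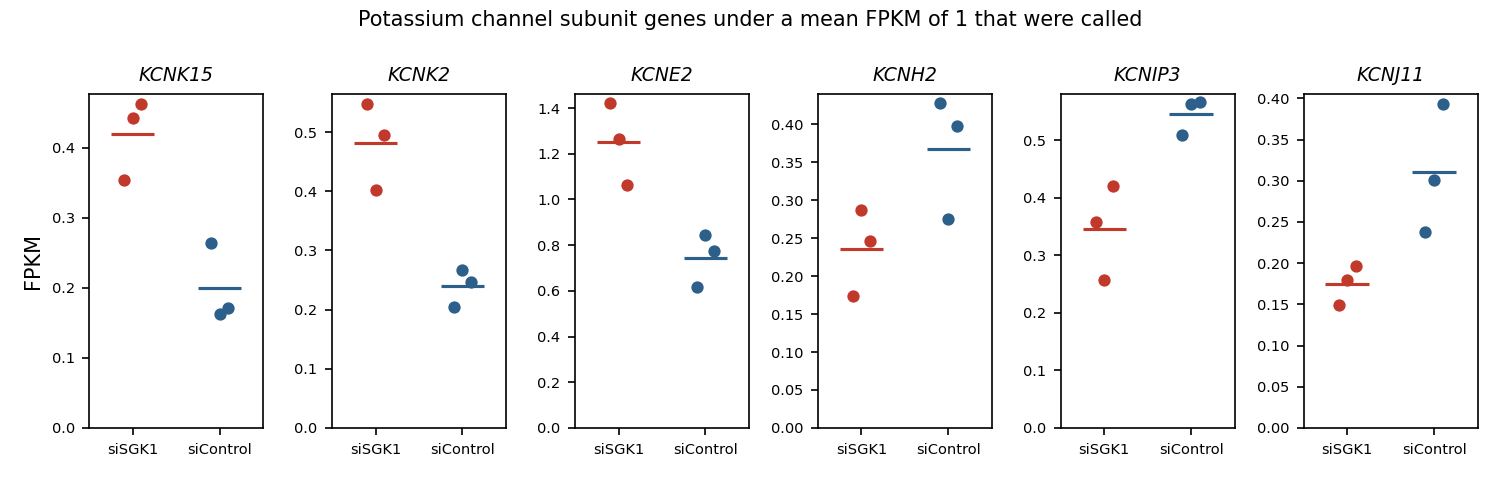
FPKM per library of the 6 members under a mean of 1 FPKM that voom called, with siSGK1 left of siControl. KCNK2, KCNK15 and KCNE2 lie higher in siSGK1, KCNIP3 and KCNJ11 lower, and the KCNH2 groups overlap.

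The K2P genes called at these low levels were KCNK2 and KCNK15. KCNK2 (ENSG00000082482, 1:215005775-215237093, plus strand) encodes TREK-1, the closest relative of the TREK-2 channel of KCNK10. It had 63, 52 and 71 reads in siSGK1, against 21, 27 and 26 in siControl, or 0.548, 0.402 and 0.496 FPKM against 0.205, 0.266 and 0.247. The groups were well apart and the log2 change was 0.98 (SE 0.25, voom adjusted p = 0.00241). On the same voom scale, the log2 change of KCNK10 was -1.05. The KCNK2 filter codons, with the signature in capitals, may be set against those of KCNK10.
KCNK2 loop 1 (chr1:215124744-215169206, plus strand, across an intron): attacaACCATAGGATTTGGAaacatc
KCNK2 loop 2 (chr1:215172156-215172170, plus strand): ctaacaACTATTGGATTTGGTgactac
KCNK15 (20:44745780-44752313, plus strand), the TASK-5 gene, whose product gives no current alone, had 27, 38 and 44 reads in siSGK1 and 18, 11 and 12 in siControl (log2 change 1.08, SE 0.31, voom adjusted p = 0.00756). All siSGK1 libraries were higher. Its value is uncertain, since 19.5% of its exon bases (506) are shared with RIMS4 on the opposite strand, which measured 0.935 ± 0.064 FPKM in siSGK1 and 0.636 ± 0.071 in siControl (SD, n = 3 each).

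KCNE2 (21:34364024-34371389, plus strand) encodes a single-pass subunit that keeps KCNQ1 channels open in gastric and choroid plexus epithelium. It had 44, 44 and 41 reads in siSGK1, against 17, 23 and 22 in siControl, while its partner KCNQ1 fell. The groups did not overlap and the log2 change was 0.72 (SE 0.27, voom adjusted p = 0.0377), but the call was lost on leaving out any single library other than siSGK1 library 4 (adjusted p 0.056 to 0.145). KCNE1, the other well-known KCNQ1 partner, had 2, 3 and 1 reads in siSGK1 and 0, 2 and 2 in siControl, and KCNE3 had none. An antisense gene that shares 359 exon bases with KCNE2 held 1 read.

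KCNIP3 (2:95297304-95386083, plus strand) encodes a calcium-binding protein, also called DREAM or calsenilin, that joins Kv4 channels and represses transcription. It had 83, 67 and 121 reads in siSGK1, against 105, 115 and 120 in siControl. In FPKM the groups did not overlap, at 0.359, 0.257 and 0.420 in siSGK1 against 0.508, 0.563 and 0.566 in siControl, and the log2 change was -0.68 (SE 0.17, voom adjusted p = 0.00249). KCNJ11 (11:17385859-17389331, minus strand), the Kir6.2 pore of the ATP-sensitive channel, had 14, 19 and 23 reads in siSGK1 and 20, 25 and 34 in siControl. Its FPKM were lower in every siSGK1 library, at a log2 change of -0.79 (SE 0.30, voom adjusted p = 0.0427). Of its sulphonylurea receptor partners, ABCC8 measured at most 0.0089 FPKM in siSGK1 and 0.0169 in siControl, and ABCC9 was at 0 in all libraries but 1. KCNH2 (7:150944961-150978315, minus strand), the hERG channel of cardiac repolarisation, had 30, 56 and 53 reads in siSGK1 and 66, 42 and 63 in siControl. Its groups overlapped even though it was called (log2 change -0.63, SE 0.23, voom adjusted p = 0.0358). The KCNJ11 call was lost after scaling to total reads, with a minimum of 5 reads and on leaving out any single library other than siControl library 2 (adjusted p 0.054 to 0.172). The KCNH2 call was lost after scaling to total reads, on the log2(FPKM + 0.5) scale and without siSGK1 library 2 or 4 or siControl library 2 or 4 (adjusted p 0.059 to 0.157).

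The other 16 members in this range were not called, with log2 changes of -0.74 to 0.60. KCNC4, the Kv3.4 gene, had the most reads of them, 502, 557 and 593 in siSGK1 and 504, 481 and 431 in siControl (log2 change -0.10, 95% interval -0.27 to 0.07). KCNJ15, the Kir4.2 gene, had 189, 230 and 308 reads in siSGK1 and 239, 209 and 212 in siControl (log2 change -0.20, 95% interval -0.44 to 0.05). The Kv7.5 gene KCNQ5 had 20, 28 and 34 reads in siSGK1 and 17, 20 and 37 in siControl (log2 change -0.12). KCNJ14, the Kir2.4 gene, had 60, 71 and 65 reads in siSGK1 and 48, 45 and 43 in siControl (log2 change 0.20, voom adjusted p = 0.477), and it shares 350 exon bases with the abundant GRWD1 on the same strand. KCNJ12 and KCNJ18 are near-identical copies, as are KCNE1 and KCNE1B, so reads that fit both copies could be miscounted. KCNJ12 had 29 reads in all and KCNJ18 had none, and the limits given for members without reads do not cover such miscounting.

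Lists of genes that work with these channels were counted in the same limma test. The lists were chosen with earlier results of these data known, so all their counts are a description only. One held the sodium-potassium pump, which builds the potassium gradient, its FXYD regulators and the related proton-potassium pumps. Of its 7 tested genes 6 fell, against 22.7% of all tested genes, and the median log2 change was -0.46. Among those that fell, FXYD6 (0.807 FPKM in siSGK1, 1.46 in siControl) and ATP12A passed the level limit through siControl. The count and median of this list are therefore given as a description only. ATP1B3, a pump beta subunit, averaged 119.8 ± 2.6 FPKM in siSGK1 and 173.4 ± 6.2 in siControl (log2 change -0.53, limma adjusted p = 5.83e-05). FXYD3, a small pump regulator, averaged 274.2 ± 22.9 FPKM in siSGK1 and 377.7 ± 5.4 in siControl, and FXYD6 fell by 0.58 on the log2 scale. ATP12A, the non-gastric proton-potassium pump, fell to 0.925 ± 0.042 FPKM in siSGK1, against 2.46 ± 0.13 in siControl (log2 change -1.06). Of 10 tested cation-chloride cotransport and WNK kinase genes, 6 fell and 2 rose, against 22.7% lower and 17.9% higher of all tested genes. The genes named next are all from those that fell. WNK1, a kinase upstream of the cotransporters, averaged 12.3 ± 0.28 FPKM in siSGK1 and 17.0 ± 1.2 in siControl, and the cotransporter genes SLC12A8 and SLC12A7 fell by 0.48 and 0.34 on the log2 scale.

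Accessory proteins without a KCN symbol were mixed, with 4 higher and 2 lower of 13 tested and a median log2 change of 0.03. Over all tested genes, 40.6% were called. CALM3 encodes calmodulin, the calcium sensor built into KCNN4 and KCNQ1 channels. CALM3 averaged 180.4 ± 9.5 FPKM in siSGK1 and 124.8 ± 2.3 in siControl (log2 change 0.53, limma adjusted p = 0.000102). FHL2, a LIM-domain protein that binds KCNE1, rose by 0.48 and VAMP2 fell by 0.31. Of 14 tested channel regulators in the SGK1 pathway, 3 rose and 3 fell, SGK1 itself among those that fell, a share near the 17.9% higher and 22.7% lower of all tested genes. NEDD4L, the ubiquitin ligase that SGK1 inhibits, averaged 5.07 ± 0.13 FPKM in siSGK1 and 4.08 ± 0.16 in siControl (log2 change 0.28, limma adjusted p = 0.00376). YWHAB, a 14-3-3 protein that binds phosphorylated NEDD4L, rose by 0.25, and SLC9A3R2, a scaffold also called NHERF2, fell by 0.37 on the log2 scale.

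Heptamers that an earlier search of the same contrast had picked out were looked up in 3′ UTRs (GENCODE 29, transcript strand only), as a description. TATGCAA and CTATGCA had been picked for genes lower in siSGK1, and CGGAGAA and TCGGAGA for genes higher. TATGCAA or its overlapping neighbour CTATGCA occurred in the 3′ UTR of 16.3% of 10261 tested protein-coding genes, and CGGAGAA or TCGGAGA in 3.99%. Among the 14 members, TATGCAA matched in KCNK10, which fell, and KCNMB4, which rose. TCGGAGAA, which holds both other heptamers, matched in KCNK6, which fell. KCNK10 moved in the direction its heptamer was picked for, and KCNMB4 and KCNK6 went the other way. The heptamers were picked on this same contrast, so these directions are no test of them. The sites are shown with the heptamers in capitals and 8 bases on either side.
KCNK10 (chr14:88180422-88180444, minus strand): agaagtgaTATGCAAaccacctc
KCNMB4 (chr12:70432992-70433014, plus strand): aaaaagtaTATGCAActgtattc
KCNK6 (chr19:38328092-38328115, plus strand): ggctgaagTCGGAGAAgcataggg
Among the 22 low members, TATGCAA or CTATGCA occurred in 7 (31.8%, against 20.1% of 3002 genes in that range), and none of those 7 was called. The median 3′ UTR length was 1991 bases for the 22 and 1426 for the genes in that range, and the part of length in these shares was not tested. CGGAGAA or TCGGAGA occurred in 2 of the 22 (9.09%), KCNK15 among them, against 4.76%.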

How the data were processed

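PolyA RNA of 3 siSGK1 and 3 siControl cultures was measured. The deposited values are FPKM per gene, 1 column per library, made by the authors with bcl2fastq 2.19, HISAT2 2.0.5 and featureCounts 1.5.0-p3 on hg19, per the submitters' processing notes. The table's positions nevertheless matched GENCODE 29 of GRCh38 for 97.4% of 58039 shared genes, and for 88 of the 96 members, so positions are read as GRCh38. FPKM times gene length gave whole reads for all values within a tolerance of 0.001, 27262794 to 35242643 per library, and the implied library sizes were those of median-of-ratios size factors, 0.952 to 1.09 times the totals.

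Where a gene averaged 1 FPKM or more, log2(FPKM + 0.5) was compared by limma 3.58.1 (R 4.3.3, intensity trend, 2-sided, Benjamini-Hochberg). Genes under 1 FPKM with at least 10 recovered reads per library were tested by limma's voom with the implied library sizes. Calls were made below an adjusted p of 0.05. Both tests were run on simulated counts with the same spread set for all genes, so that run does not measure their accuracy on these libraries. No pair of libraries agreed within sampling noise. All members with a mean FPKM of at least 1 are named, then 12 others (those called, then those with most reads), and up to 4 genes of each other list. Members and lists were chosen with earlier results of these data known. Alternative filters, pseudocounts, scalings, left-out libraries and a replicate block were tried. Protein sequences were not used here. A few genes that the naming rule picks are not reported here.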

Additional observations from a re-analysis of the deposited data

How the results depend on the processing

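Of the members with a mean of at least 1 FPKM, 2 were called higher and 7 lower. Without a level filter, 0 of these 14 were higher and 6 lower, while over all members with reads 1 was higher (KCNK2, a low member) and 7 lower. The number higher was 1 with a minimum mean of 5 FPKM, and 0 to 2 when each library was left out in turn, with 0 without siSGK1 library 4 and 1 without siSGK1 library 2, siControl library 3 or siControl library 4. The number lower was 1 with the minimum of 5 FPKM, where only 4 members were tested, 6 after rescaling to TPM, and 7 without any single library. Of the low members, 3 were higher and 3 lower; the number lower was 1 after scaling to total reads and 1 to 2 with a library left out, and the cause was not tested. On log2(FPKM + 0.5) without a level filter, KCNK2 was the only one of the 6 low calls that remained (limma adjusted p 0.052 to 0.261 for the others). No called change turned round under the alternatives run. A fit with replicate block gave 2 higher and 7 lower, and 3 and 3 among the low members. The correlations of same-numbered libraries were 0.12, 0.014 and -0.10 for numbers 2, 3 and 4, so the numbers were not read as pairs.

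The median log2 change of all tested genes was -0.006 as deposited, 0.12 after scaling to total reads and 0.19 in TPM, and calls were higher in 44.2%, 73.6% and 82.8% of cases under these scalings. Members of few reads are limited by depth: KCNJ11 had 14 to 23 reads per siSGK1 library and 20 to 34 per siControl library.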
